A study of Equus caballus with 25 samples.

Results

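TREM1, TLR4, IRAK3 and PTX3 are innate sensing genes that were measured in bronchoalveolar lavage (BAL) cells of healthy and asthmatic horses. Their probes were every probe that the study's supplementary gene tables pair with these symbols, which gave 5 equine Ensembl transcripts of 4 genes, among 7238 transcripts on the array. TREM1 had 2 transcripts (ENSECAT00000018405 and ENSECAT00000018429), TLR4 had ENSECAT00000010707, IRAK3 had ENSECAT00000029063 and PTX3 had ENSECAT00000004554. The tables give symbols to 1865 transcripts only, all of them called changed in these same horses, and list the 5 member transcripts under SEA against CTRL. The rise between those groups is therefore a description of transcripts known to differ and not independent evidence.

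RNA of the BAL cells was hybridized to single-color arrays, 1 array for each of 25 horses. The labels give 7 horses as Control (CTRL), 10 as IAD, inflammatory airway disease, now called mild equine asthma (MEA), and 8 as RAO, recurrent airway obstruction, now called severe equine asthma (SEA). By the study's methods, diseased horses were hospital cases sampled when they presented and healthy horses were enrolled by their owners, each group held both sexes, and bacterial culture of the fluid was negative throughout. MEA-affected horses were accepted only with neutrophilic inflammation and were of similar age to the CTRL horses. SEA-affected horses were older, and the CTRL horses were all standardbreds whereas both diseased groups were mostly saddle horses, so that disease, age and breed cannot be told apart between SEA and CTRL. Likewise, disease and breed cannot be told apart between MEA and CTRL, nor severity and age between SEA and MEA. The pellet was a mixture of cells: in the study's cytology macrophages predominated in CTRL and MEA and neutrophils in SEA, and the neutrophil percentages of the 3 groups did not overlap. In such a mixture, more cells of a type and more RNA per cell cannot be told apart.

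These 4 genes stand at different steps of the first response to microbes and dust. TLR4 is the cell surface receptor for bacterial endotoxin, which is abundant in stable dust, and starts signaling to NF-kB. TREM1, triggering receptor expressed on myeloid cells 1, is a receptor of neutrophils and monocytes that pairs with the adaptor DAP12 and amplifies toll-like receptor responses. IRAK3, also called IRAK-M, is a kinase-dead member of the IRAK family that restrains toll-like receptor signaling. PTX3 is a long pentraxin, a secreted molecule that opsonizes microbes and is stored in neutrophil granules as well as made by myeloid cells on toll-like receptor stimulation.

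The probe sequences are shown because they decide how many independent measurements these 5 transcripts give. Each transcript was read by a probe of 60 bases spotted 2 times on each array, and both TREM1 transcripts carry the identical probe, so that their 4 spots are repeated readings of 1 sequence and not 2 isoforms. Written 5′ to 3′ as in the scanner output, without capitals since no stretch is singled out, the 4 distinct probes are:
TREM1 (both transcripts): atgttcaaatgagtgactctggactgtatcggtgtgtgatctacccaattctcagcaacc
TLR4: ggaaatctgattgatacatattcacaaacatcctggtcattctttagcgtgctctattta
IRAK3: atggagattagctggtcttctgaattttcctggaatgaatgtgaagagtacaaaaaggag
PTX3: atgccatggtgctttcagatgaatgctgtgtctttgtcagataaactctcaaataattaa
The GC content is 45% for TREM1, 35.0% for TLR4, 38.3% for IRAK3 and 35.0% for PTX3. The TLR4, IRAK3 and PTX3 probes were shared with no other transcript. Over the whole array 431 probe sequences were shared by several transcripts, so the TREM1 arrangement was not exceptional.

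All member spots were well above background and none was saturated or marked as an outlier by the scanner software, except that 1 of the 2 IRAK3 spots of CTRL 1 was not well above background. The repeated spots gave the technical error. The median difference between the 2 spots of a transcript was 0.19 and 0.08 on the log2 scale for the TREM1 transcripts, 0.15 for TLR4, 0.17 for IRAK3 and 0.11 for PTX3, against 0.21 over all transcripts. Single horses were worse: the spots of CTRL 1 differed by 2.06 for TLR4 and by 2.18 for IRAK3, and those of SEA 8 by 1.4 for PTX3. The 4 spots of the TREM1 probe spanned a median of 0.24 and at most 1.24 per horse, which is small beside the differences between horses described below. Array signal as a whole differed too, since the share of spots well above background ran from 63.5% to 90.4% in CTRL, from 58.2% to 84.1% in MEA and from 66.6% to 90.8% in SEA.

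The arrays of 2 horses stood apart from their groups and are named before the results. MEA 3 was the highest of all 25 horses for TREM1, TLR4 and IRAK3 and the fourth highest for PTX3. SEA 1 was the lowest SEA horse for each member, within the CTRL range for all of them and, for IRAK3, below every MEA horse. For IRAK3 (4.82) it was within the CTRL range only through CTRL 1 (4.69), whose 2 spots read 5.78 and 3.6. The mean log2 intensity of 11 transcripts of 10 neutrophil marker genes followed the same pattern: it was highest of all horses in MEA 3 (12.47) and lowest of all horses in SEA 1 (8.37). The cytology of these horses did not: MEA 3 lay within the MEA range of neutrophil percentages and SEA 1 within the SEA range. Whether a sample or array was exchanged was not tested, and group means and relations to the neutrophil percentage rest on the labels as given. SEA 1 also had the lowest mean of 9 epithelial marker transcripts (5.01). Results that turn on these horses are given with and without them.

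TREM1 levels spread over several log2 units within each group. For ENSECAT00000018405, the CTRL horses ran from 8.90 through a median of 9.97 to 12.68 in log2 intensity, the MEA horses from 9.65 through 10.68 to 16.32, and the SEA horses from 10.00 through 14.43 to 16.20. Within CTRL, CTRL 2 (12.68), CTRL 7 (12.30) and CTRL 3 (11.72) lay apart from the other 4 horses, none of which exceeded 9.97. Within SEA, 7 of 8 horses lay above every CTRL horse, and the exception was SEA 1. The second TREM1 transcript repeated this order with means of 10.73 in CTRL, 11.34 in MEA and 14.23 in SEA.

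TLR4 ran from 9.54 to 13.16 in CTRL (median 11.56), from 10.93 to 15.87 in MEA (median 11.65) and from 11.55 to 15.56 in SEA (median 13.49). Of the 8 SEA horses, 5 lay above every CTRL horse. MEA 3, at 15.87, was followed within its group by MEA 5 at 12.99, so that 9 of 10 MEA horses lay within the CTRL range.

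IRAK3 differed least of the members between SEA and CTRL and between SEA and MEA, but not between MEA and CTRL. Its levels ran from 4.69 to 6.84 in CTRL (median 6.07), from 5.61 to 9.74 in MEA (median 6.37) and from 4.82 to 9.17 in SEA (median 7.83). SEA 1 was the only SEA horse below the lowest MEA horse, and 4 of 10 MEA horses lay above every CTRL horse. This dim probe is also the one on which background handling acted most, as given with the comparison of SEA and CTRL.

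PTX3 ran from 10.37 to 14.73 in CTRL (median 11.58), from 11.21 to 16.64 in MEA (median 12.63) and from 11.30 to 17.57 in SEA (median 14.99). The 3 CTRL horses that were high for TREM1 were also the 3 highest for PTX3, at 14.73 in CTRL 2, 14.33 in CTRL 7 and 13.76 in CTRL 3. Of the SEA horses, 4 lay above every CTRL horse and 3 above every MEA horse.

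**Figure D1:**
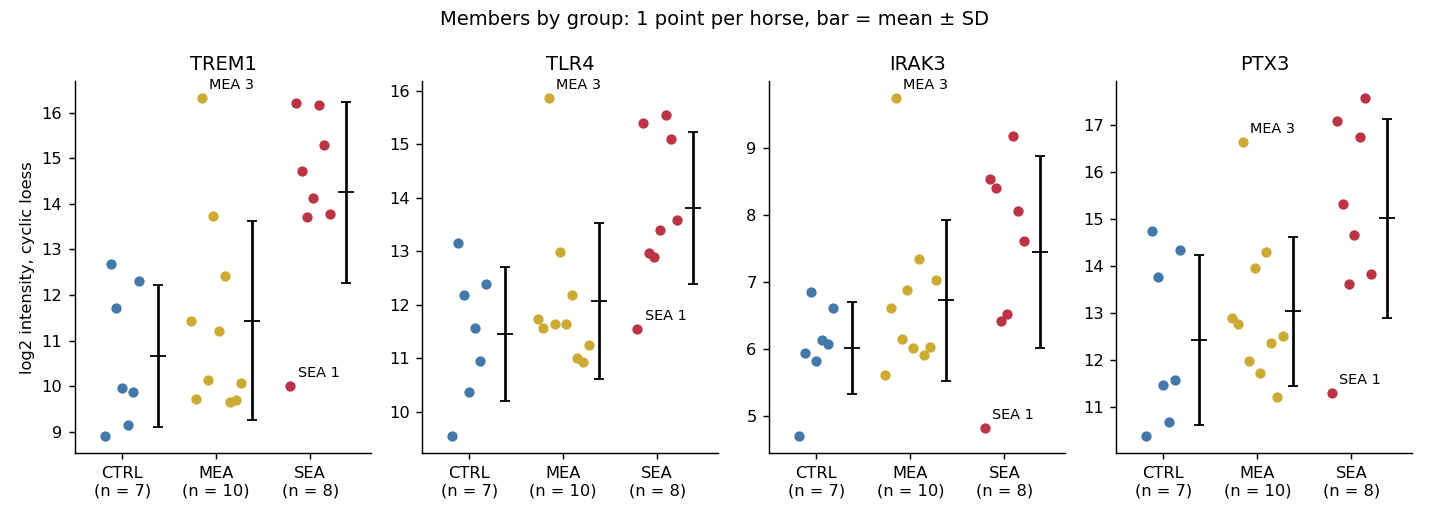
Log2 intensity after cyclic loess for TREM1 (ENSECAT00000018405), TLR4, IRAK3 and PTX3, with 1 point per horse in CTRL (n = 7), MEA (n = 10) and SEA (n = 8) and a black bar for the mean ± SD. The panels have separate vertical axes because levels of different probes cannot be compared; MEA 3 lies among the highest SEA horses in each panel, and SEA 1 lies among the CTRL and MEA horses for TREM1, TLR4 and PTX3 and below every MEA horse for IRAK3.

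Horses of the same group differed widely in these genes. The SD of TREM1 ENSECAT00000018405 came to 1.55, 2.18 and 1.98 in the CTRL, MEA and SEA horses, where the median SD of all tested transcripts was 0.48, 0.58 and 0.56. Its SD was above that of 98.3% of the 4930 tested transcripts in CTRL, 99.7% in MEA and 98.3% in SEA. The 2 horses that stood apart widened it: without MEA 3 the MEA levels ran from 9.65 to 13.74. Without SEA 1 the SEA levels ran from 13.7 to 16.2, against 8.9 to 12.68 in CTRL. PTX3 was placed similarly, with an SD of 1.81, 1.58 and 2.1, above 99%, 98.0% and 98.8% of transcripts. TLR4 had SDs of 1.25, 1.46 and 1.42, above 96.3%, 96.9% and 92.6%. Its spread in MEA rested on MEA 3, without which the MEA levels ran from 10.93 to 12.99, against 9.54 to 13.16 in CTRL. IRAK3 had an SD of 0.69 in CTRL (above 74.6%), 1.2 in MEA (above 92.6%) and 1.43 in SEA (above 92.7%). Without MEA 3 its MEA levels ran from 5.61 to 7.34, against 4.69 to 6.84 in CTRL. The lowest CTRL value was that of CTRL 1, whose 2 IRAK3 spots read 5.78 and 3.6. The next lowest CTRL horse was at 5.82, so the spreads are not ranked. All these SDs include MEA 3 and SEA 1 and were not computed without them. The spread was already present in healthy horses for 3 of the 4 genes, and it sets the size of the errors below.

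Between SEA and CTRL horses the question was which sensing genes differ in severe disease. All 5 member transcripts were called higher in SEA (limma p below 0.1 after Benjamini-Hochberg adjustment, with a change of 1.5-fold or more). Among all 4930 tested transcripts, 16.0% were called higher in SEA and 16.7% lower. The member count is fixed by how the members obtained their symbols, so nothing is read from it. TREM1 ENSECAT00000018405 averaged 14.25 ± 1.98 over 8 SEA horses and 10.66 ± 1.55 over 7 CTRL horses (mean ± SD), a difference of 3.6 on the log2 scale (limma SE 0.84, adjusted p = 0.0117) or 12.1-fold, with place 5 among all 4930 rises. Its repeat, ENSECAT00000018429, gave 3.5 (SE 0.82, adjusted p = 0.012).

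PTX3 averaged 15.01 ± 2.1 in SEA and 12.42 ± 1.81 in CTRL, higher by 2.59 in log2 (SE 0.92, adjusted p = 0.0472) or 6.03-fold. TLR4 averaged 13.81 ± 1.42 against 11.45 ± 1.25, higher by 2.36 in log2 (SE 0.63, adjusted p = 0.0171) or 5.14-fold. IRAK3 averaged 7.44 ± 1.43 against 6.01 ± 0.69, higher by 1.42 in log2 (SE 0.54, adjusted p = 0.0621) or 2.68-fold. The order of the fold changes was thus TREM1, PTX3, TLR4 and IRAK3, with the SEs of neighbors in that order overlapping.

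No member separated SEA from CTRL completely. Over all tested transcripts, in 1.56% every SEA horse lay above every CTRL horse. For each member SEA 1 lay within the CTRL range, for IRAK3 only through CTRL 1. Without SEA 1 the log2 fold changes were 4.20 for TREM1 ENSECAT00000018405 (adjusted p = 0.00135), 3.12 for PTX3 (adjusted p = 0.0138), 2.68 for TLR4 (adjusted p = 0.00624) and 1.79 for IRAK3 (adjusted p = 0.01). In the other direction, CTRL 1, the lowest horse for each member, carried weight. Its 2 spots disagreed for TLR4 (10.57 and 8.51) and for IRAK3 (5.78 and 3.6), and its place as lowest for these genes rests on the lower spot. Without CTRL 1 PTX3 fell to 2.25 (adjusted p = 0.107) and IRAK3 to 1.2 (adjusted p = 0.136), and neither was then called. IRAK3 was also no longer called without CTRL 4 (1.39, adjusted p = 0.104), SEA 2 (1.27, adjusted p = 0.114), SEA 3 (1.29, adjusted p = 0.11) or SEA 6 (1.17, adjusted p = 0.104), against 1.42 with all horses. Correcting the background by normexp lowered its log2 fold change to 0.82 (adjusted p = 0.0926). TREM1 and TLR4 stayed called whichever horse was left out.

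The slides held the groups unevenly, and the differences within slides were not alike. On slide 2, with 3 SEA and 2 CTRL horses, TREM1 ENSECAT00000018405 was higher in SEA by 4.63 on the log2 scale, and on slide 3, also with 3 and 2, by 5.09. On slide 4, with 1 SEA and 1 CTRL horse, the difference was 1.48. On slide 1, where SEA 1 was the only SEA horse beside 2 CTRL horses, it was -0.79. PTX3 gave 3.45, 4.45, -0.51 and -1.25 on these slides in the same order, TLR4 gave 2.12, 3.8, 1.2 and 0.20, and IRAK3 gave 1.13, 2.13, 1.0 and -0.49. These values are differences of means with no test. On slide 4 the 2 PTX3 spots of SEA 8 disagreed (14.52 and 13.11), against 14.29 and 14.37 in CTRL 7. The sign of the PTX3 difference there rests on the lower SEA 8 spot.

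Between MEA and CTRL, the question was whether mild disease shows the same genes. No member was called, where 3.25% of the tested transcripts were called higher in MEA and 6.53% lower, and none of the 5 reached an unadjusted limma p of 0.05. TREM1 ENSECAT00000018405 averaged 11.44 ± 2.18 (SD, n = 10) in MEA, which was 0.79 above CTRL in log2 (SE 0.86, adjusted p = 0.602). TLR4 gave 0.63 (SE 0.62, adjusted p = 0.554), PTX3 gave 0.61 (SE 0.74, adjusted p = 0.643) and IRAK3 gave 0.71 (SE 0.46, adjusted p = 0.369). MEA 3 made up much of these values: without it they were 0.24 for TREM1, 0.21 for TLR4, 0.21 for PTX3 and 0.37 for IRAK3. In the same order they were 0.49, 0.31, 0.27 and 0.49 without CTRL 1 and 1.12, 0.92, 1.0 and 0.7 without CTRL 2. The rank sum version of SAM likewise called 0 of the 5 members. With each horse's epithelial cell percentage added to the model, the log2 fold changes were -0.35 for TREM1 ENSECAT00000018405, -0.14 for TLR4 and -0.49 for PTX3. IRAK3 was then at -0.0. The direction is therefore not settled. Within slides 1 to 4 the TREM1 ENSECAT00000018405 difference between MEA and CTRL was -0.21, 2.38, 0.42 and -0.67, and that of PTX3 was 0.28, 1.88, -0.96 and -0.93. On the same slides TLR4 gave 0.3, 1.35, 0.09 and -0.14, and IRAK3 gave 0.79, 0.53, -0.45 and 0.59.

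Between SEA and MEA, the means again favored SEA for each member, and none was called. For TREM1 ENSECAT00000018405 SEA was above MEA by 2.81 in log2 (SE 0.91, adjusted p = 0.122) and for ENSECAT00000018429 by 2.89 (SE 0.93, adjusted p = 0.121). PTX3 gave 1.98 (SE 0.79, adjusted p = 0.181), TLR4 gave 1.73 (SE 0.63, adjusted p = 0.151) and IRAK3 gave 0.71 (SE 0.57, adjusted p = 0.484). Among all tested transcripts, 1.44% were called higher in SEA and 0.791% lower, and the TREM1 transcripts took places 7 and 5 of 4930 by the size of the difference. The unadjusted limma p was 0.00585 and 0.00555 for the TREM1 transcripts, 0.0127 for TLR4 and 0.0217 for PTX3. The members were listed for a difference that used the same SEA horses. These places and p values are therefore descriptions and not independent evidence.

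This comparison turned on the 2 horses that stood apart. Both were singled out by their levels of these genes, and leaving out a high MEA horse or a low SEA horse widens the difference by construction, so the values below show how much each horse weighed and are not a test of SEA against MEA. Leaving either out also raised the share of all tested transcripts called higher in SEA, from 1.44% to 8.38% without MEA 3 and to 5.35% without SEA 1. Without MEA 3, 4 of the 5 members were called: TREM1 ENSECAT00000018405 with a log2 fold change of 3.35 (adjusted p = 0.0212), ENSECAT00000018429 with 3.47 (adjusted p = 0.02), TLR4 with 2.15 (adjusted p = 0.0209) and PTX3 with 2.38 (adjusted p = 0.0562). Without SEA 1 the same 4 were called, at 3.42 (adjusted p = 0.0427), 3.48 (adjusted p = 0.0454), 2.05 (adjusted p = 0.0718) and 2.51 (adjusted p = 0.063). Without MEA 5, the next highest MEA horse for TREM1, where 3.57% of all transcripts were called higher, both TREM1 transcripts were called, at 3.07 (adjusted p = 0.0803) and 3.16 (adjusted p = 0.0793). IRAK3 was called in none of these. Within slides 1 to 4 SEA exceeded MEA by -0.58, 2.25, 4.67 and 2.15 for TREM1 ENSECAT00000018405, -0.10, 0.78, 3.71 and 1.34 for TLR4, and -1.52, 1.57, 5.41 and 0.42 for PTX3, with SEA 1 the only SEA horse on slide 1 and MEA 3 on slide 4. Both TREM1 transcripts were also called by the rank sum version of SAM (adjusted p = 0.0882 and 0.0688), with all 25 arrays in 1 fit (0.0802 and 0.0785) and with sex as a covariate (0.0989 and 0.0987). Calls over all 4930 transcripts rose in these settings too, from 110 to 505, 279 and 208.

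**Figure D2:**
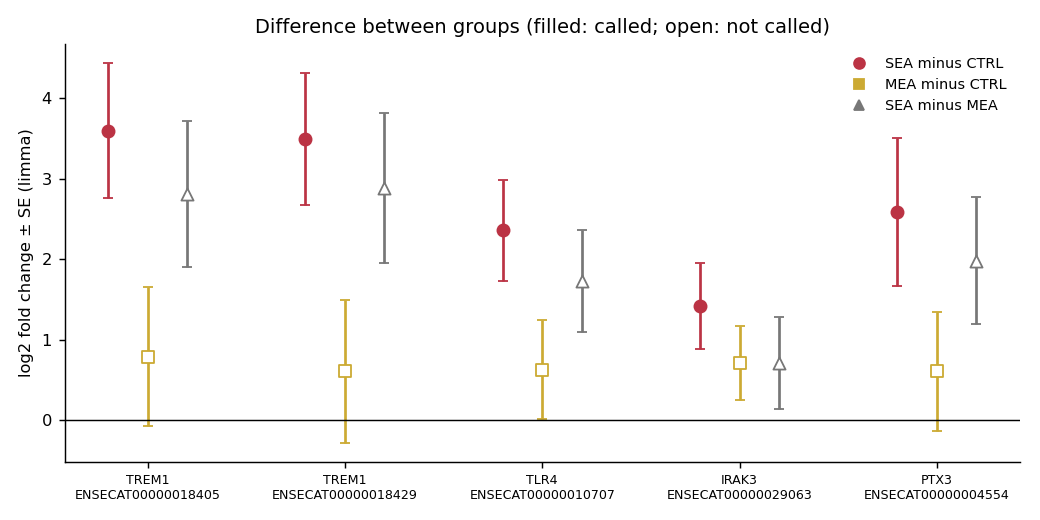
Log2 fold change ± SE from limma for the 5 member transcripts in the 3 comparisons, filled where called and open where not. The points for SEA minus CTRL lie between 1.42 and 3.6 and are filled, those for MEA minus CTRL lie between 0.61 and 0.79 and are open, and those for SEA minus MEA lie between 0.71 and 2.89 and are open.

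The members moved together from horse to horse. In SEA, TREM1 ENSECAT00000018405 had a Pearson r of 0.93 with PTX3 (Spearman rho 0.93), 0.92 with IRAK3 (rho 0.93) and 0.90 with TLR4 (rho 0.88), each over 8 horses. TLR4 and PTX3 had an r of 0.93 (rho 0.81), IRAK3 and PTX3 0.87 (rho 0.81), and TLR4 and IRAK3 0.84 (rho 0.86). By an exact two-sided permutation test adjusted over the 30 relations of the 3 groups, all 10 SEA pairs passed a threshold of 0.05, 1 of them being TREM1 with its own repeat. The raw exact p values of the other 9 pairs ran from 0.000174 to 0.00972 and the adjusted ones from 0.000992 to 0.0146. SEA levels also differed by slide, with each member lowest on slide 1 and highest on slide 3. On slides 1 to 4 the SEA mean of TREM1 ENSECAT00000018405 was 10.0, 14.18, 15.89 and 13.78. On slides 2 and 3, with 3 SEA horses each, TLR4 averaged 13.09 and 15.36 and PTX3 14.53 and 17.12. The permutations ignored slide, so its part in these relations was not tested. Without SEA 1, 8 pairs passed, and the pairs of IRAK3 with PTX3 (r = 0.73, exact adjusted p = 0.0865) and with TLR4 (r = 0.71, exact adjusted p = 0.0977) did not.

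In MEA, the close pairs were those without IRAK3. TREM1 ENSECAT00000018405 had an r of 0.95 with TLR4 (rho 0.98, permutation p = 5e-05, adjusted p = 5e-04), 0.91 with PTX3 (rho 0.75, permutation p = 0.00173, adjusted p = 0.00346), and TLR4 had an r of 0.92 with PTX3 (rho 0.79, permutation p = 0.00101, adjusted p = 0.00252), over 10 horses. Leaving out the 2 horses farthest from the median of the first gene left 0.85, 0.66 and 0.73. IRAK3 had an r of 0.81 with TREM1, 0.90 with TLR4 and 0.90 with PTX3, but a rho of 0.52, 0.47 and 0.61 and, without the 2 farthest horses, an r of 0.28, 0.40 and 0.46. The IRAK3 relations in MEA thus rested on those horses. Without MEA 3 they were 0.41, 0.48 and 0.67 and did not pass (exact adjusted p = 0.28, 0.213 and 0.0685), while TREM1 with TLR4 kept an r of 0.94 (exact adjusted p = 0.000992).

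Among healthy horses, TREM1 ENSECAT00000018405 and PTX3 lay close to a straight line on the log2 scale, with an r of 1.0 after rounding (rho 0.96, exact p = 0.000397, adjusted p = 0.00149) over 7 horses, and 1.0 again without the 2 farthest. TLR4 had an r of 0.87 with TREM1 (exact p = 0.0147, adjusted p = 0.0176) and 0.88 with PTX3 (exact p = 0.0131, adjusted p = 0.0171), which were 0.70 and 0.76 without the 2 farthest horses. IRAK3 had an r of 0.62 with TREM1, 0.73 with TLR4 and 0.63 with PTX3, and none of these passed (exact adjusted p = 0.129, 0.0608 and 0.121). Without CTRL 1, the relation of TREM1 and TLR4 had an r of 0.83 and an exact adjusted p of 0.0667, and without CTRL 2 an r of 0.80 and an exact adjusted p of 0.0685. TLR4 with PTX3 likewise no longer passed, at an r of 0.84 without CTRL 1 (exact adjusted p = 0.066) and 0.81 without CTRL 2 (exact adjusted p = 0.0625). Without CTRL 2, TLR4 with IRAK3 passed (r = 0.95, exact adjusted p = 0.00658). Counting the TREM1 probe only through its first transcript, a count added after seeing the data, 3 of 6 pairs passed in CTRL, 6 of 6 in MEA and 6 of 6 in SEA. No slide held 6 horses of a group, the fewest over which a relation was tested, so none was computed within slides. The permutation tests took no account of slide.

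**Figure D3:**
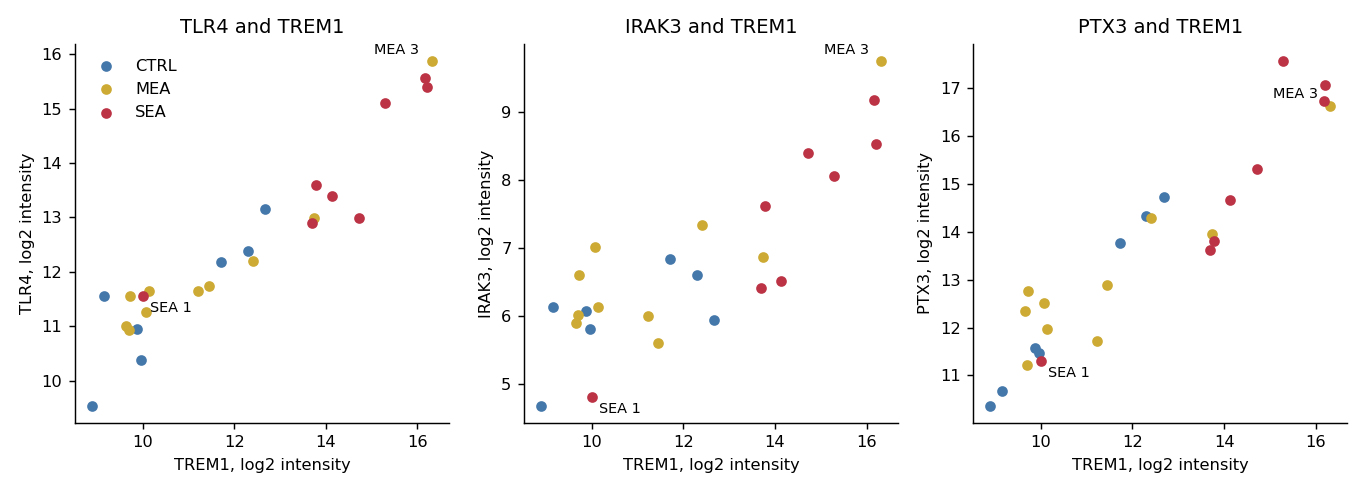
Log2 intensity of TLR4, IRAK3 and PTX3 (vertical axes) against that of TREM1 ENSECAT00000018405 (horizontal axes), 1 point per horse and colored by group. PTX3 and TLR4 rise with TREM1 within each group, whereas the MEA and CTRL points of IRAK3 scatter; MEA 3 lies at the upper right and SEA 1 among the lower points.

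Many other transcripts shared this pattern, which bears on how far it belongs to these genes. After the mean of each group was subtracted, TREM1 ENSECAT00000018405 had an r of 0.92 with TLR4, 0.92 with PTX3 and 0.82 with IRAK3 over 25 horses. Ranked by r with TREM1 among the other 4928 transcripts without missing values, PTX3 came in place 25, TLR4 in place 26 and IRAK3 in place 131. Seen from TLR4, PTX3 came in place 52 and IRAK3 in place 139, and seen from IRAK3, PTX3 came in place 92. The values are descriptions, and the points share arrays and array signal. They place the members within a larger group of transcripts that varied alike and do not set them apart from it.

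The 3 nearest transcripts of each member, with the repeat of TREM1 left out, all carried a symbol. They were thus among those the study called changed. Nearest to TREM1 were GADD45A, a growth arrest and stress gene (r = 0.99), CCRL2, a chemokine-binding receptor induced in activated myeloid cells (0.97), and PLAUR, the urokinase receptor (0.97). Nearest to TLR4 were SLC16A3, the lactate exporter of glycolytic cells (0.96), TAGAP, a GTPase-activating protein (0.95), and RAB27A, which acts in granule secretion (0.95). Nearest to PTX3 were G0S2, an inhibitor of lipolysis (0.97), and both transcripts of SOCS3, a suppressor of cytokine signaling (0.95 each), whose 2 transcripts share 1 probe. Nearest to IRAK3, at lower values, were SNX10, a sorting nexin (0.92), RRAGC, a Rag GTPase (0.91), and USP48, a deubiquitinase (0.91). Between SEA and CTRL, GADD45A had a log2 fold change of 2.75, CCRL2 of 2.54, PLAUR of 2.41, G0S2 of 2.51, SNX10 of 2.13, TAGAP of 2.03, USP48 of 1.69, RRAGC of 1.57 and SLC16A3 of 1.4, and the SOCS3 transcripts are given with the brakes. RAB27A, at 1.33 (adjusted p = 0.118), was not called.

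The members did not follow the neutrophil percentage of the cytology within groups. None of 15 relations, 5 transcripts in 3 groups, passed (exact or 100000-resample permutation test), and the smallest adjusted p was 0.728 by Pearson's r and 0.771 by Spearman's rho. In CTRL, r was 0.14 for TREM1 ENSECAT00000018405 (rho 0.27, exact p = 0.731), 0.54 for TLR4 (rho 0.53, exact p = 0.217), 0.17 for IRAK3 (rho 0.15, exact p = 0.702) and 0.14 for PTX3 (rho 0.27, exact p = 0.744). Without the 2 farthest horses these were 0.62, 0.55, 0.42 and 0.60, and leaving out 1 horse moved that of TREM1 between -0.17 and 0.74. In MEA, r was -0.27 for TREM1 (rho -0.19, permutation p = 0.481), -0.27 for TLR4 (rho -0.09, permutation p = 0.495), -0.43 for IRAK3 (rho -0.57, permutation p = 0.21) and -0.24 for PTX3 (rho -0.03, permutation p = 0.534). Without the 2 farthest they were -0.19, -0.26, -0.37 and -0.32, and without MEA 3 they were -0.13, -0.13, -0.48 and -0.07.

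In SEA, where neutrophils ranged most widely, the coefficients were below 0: r was -0.31 for TREM1 (rho -0.50, exact p = 0.391), -0.56 for TLR4 (rho -0.48, exact p = 0.143), -0.32 for IRAK3 (rho -0.38, exact p = 0.438) and -0.39 for PTX3 (rho -0.38, exact p = 0.347). Without the 2 horses farthest from the median percentage they were 0.07, -0.38, 0.13 and -0.14. Without SEA 1 they were -0.80 for TREM1, -0.82 for TLR4, -0.59 for IRAK3 and -0.66 for PTX3, with exact adjusted p of 0.1, 0.0982, 0.466 and 0.34. SEA 6, the SEA horse with the fewest neutrophils by cytology, was among the 3 highest of all 25 horses for each member. At these group sizes a relation has to be strong to pass, and moderate ones were not detectable.

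Marker transcripts were read beside the cytology. They too carry a symbol only where the study called them changed, so nothing is read from their call counts against the 16.0% higher and 16.7% lower of all transcripts. The neutrophil list had 29 genes, of which 10 carried a symbol, and its mean log2 intensity over 11 transcripts ran from 8.94 to 10.69 in CTRL, from 9.45 to 12.47 in MEA and from 8.37 to 11.82 in SEA. Of the 11 transcripts, 8 were called higher and 2 lower in SEA than in CTRL. CSF3R, the G-CSF receptor of neutrophils, rose by 2.53 (SE 0.97, adjusted p = 0.0633), OSM, oncostatin M, by 2.19 (SE 0.77, adjusted p = 0.0445) and MMP9, a neutrophil gelatinase, by 1.88 (SE 0.71, adjusted p = 0.0592). VNN1, vanin 1, fell by 3.08 (SE 0.58, adjusted p = 0.00499) and LTF, lactoferrin, by 2.1 (SE 0.76, adjusted p = 0.0511). Classic granule genes of the list other than LTF and MMP9, and the calprotectin genes, carried no symbol and were not read. CSF3R lost its call when any of 7 horses was left out, the lowest value being 2.14 without CTRL 1. MMP9 lost its call without any of 4 horses (1.66 without CTRL 1, 1.53 without CTRL 4, 1.62 without CTRL 5 and 1.73 without SEA 2), and LTF without CTRL 4 (-1.92).

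The macrophage list gave 7 transcripts of 5 genes, with means from 7.98 to 9.78 in CTRL, from 9.02 to 10.28 in MEA and from 9.16 to 10.07 in SEA, and 3 of 7 were called higher in SEA than in CTRL and 0 lower. ITGAX, the integrin CD11c, rose by 1.55 (SE 0.41, adjusted p = 0.0164) for one transcript and 1.38 for the other, and CD68 rose by 0.84 (SE 0.30, adjusted p = 0.0461), a call that ended without CTRL 1 (0.71), under quantile normalization (0.61) and with a replicate block (0.74). MARCO, a scavenger receptor of alveolar macrophages, differed by -1.12 (SE 0.58, adjusted p = 0.162). The epithelial list gave 9 transcripts of 8 genes, with means from 8.26 to 10.05 in CTRL, from 6.66 to 9.72 in MEA and from 5.01 to 8.84 in SEA, and 8 of 9 were called lower in SEA. The changes were -2.55 for EPCAM, an adhesion molecule, -2.5 for TUBA1A, a tubulin, and -2.34 for MUC4, a mucin. None of the lymphocyte or mast cell markers carried a symbol. Between MEA and CTRL, where 3.25% of all transcripts were called higher and 6.53% lower, 5 of the 9 epithelial transcripts were called lower. Of the macrophage list, whose 7 transcripts were read by 6 probe sequences, 2 were called higher, both of the gene SIGLEC1 (0.83 and 1.14). Of the neutrophil list LTF alone was called, lower by 1.77. None of these calls held with the epithelial percentage in the model, where 0 transcripts were called. The limit on counts given above holds here too. The neutrophil list averaged 9.94 over the CTRL horses, 10.05 over the MEA horses and 10.67 over the SEA horses. Without MEA 3 the MEA mean was 9.78, below CTRL, and without SEA 1 the SEA mean was 11. The epithelial list averaged 9.53, 8.31 and 7.49, with 8.26 in MEA without MEA 3 and 7.84 in SEA without SEA 1. Within SEA, SEA 1 was the lowest horse both on the epithelial list and for TREM1. SEA 2, SEA 6 and SEA 7, the 3 highest for TREM1, had epithelial means of 8.46, 7.81 and 8.84. SEA 3, SEA 5, SEA 8 and SEA 4, next for TREM1 in that order, had 6.15, 8.45, 7.12 and 8.04. The relation of TREM1 to the epithelial list within SEA was not tested. The macrophage list averaged 9.18, 9.74 and 9.6, with 9.82 in MEA without MEA 3 and 9.54 in SEA without SEA 1, and on it SEA 1 was the third highest of all horses (10.07) and MEA 3 took place 23 (9.02). Its mean was thus higher in SEA than in CTRL, whereas by cytology macrophages predominated in CTRL and neutrophils in SEA. The macrophage list is therefore not read as macrophage content. The part of these lists in the members' differences was not tested.

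**Figure D4:**
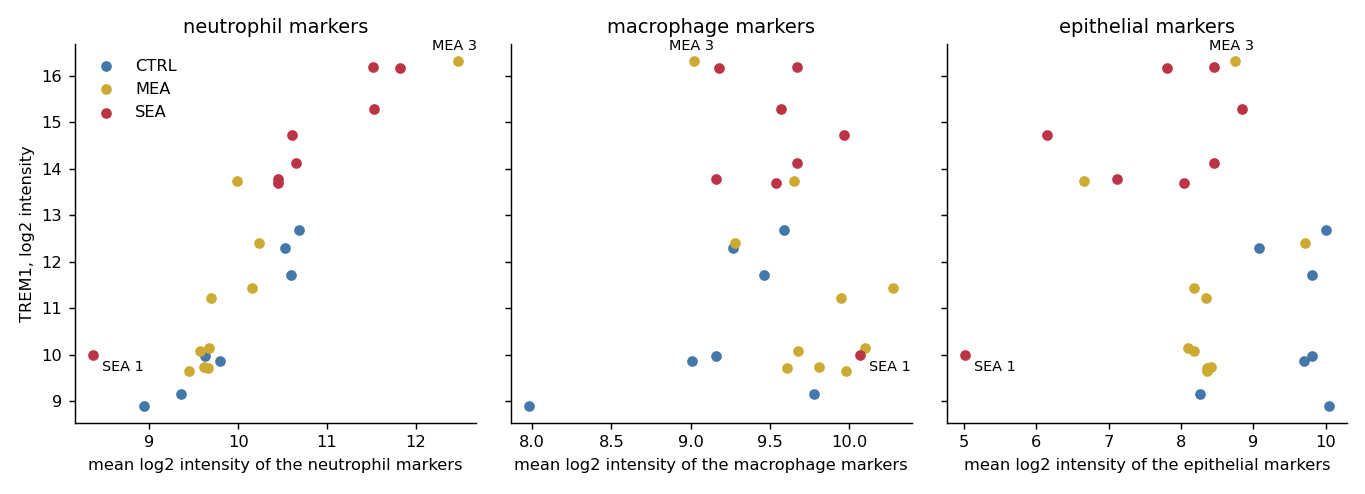
Log2 intensity of TREM1 ENSECAT00000018405 (vertical axis) against the mean log2 intensity of the neutrophil, macrophage and epithelial marker transcripts (horizontal axes), 1 point per horse and colored by group. TREM1 rises along the neutrophil list, on which MEA 3 is the highest horse (12.47) and SEA 1 the lowest (8.37); SEA 1 is also lowest on the epithelial list (5.01).

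Other genes of the same pathways were read from lists of gene names. These too have a symbol only where the study called them changed, so their counts in SEA against CTRL carry the same limit and nothing is read from them against the 16.0% called higher and 16.7% lower over all transcripts. The medians carry it too, and since MEA and SEA are compared with the same CTRL horses, so do the values in MEA, where those shares were 3.25% and 6.53%. The medians of all transcripts are given only for scale. Of 35 other genes of the toll-like receptor pathway, 8 had a symbol and were tested: 7 rose in SEA, 0 fell and IRAK4, the kinase at the start of the cascade, was not called (0.57, SE 0.35, adjusted p = 0.234). The median log2 fold change of the 8 was 0.99, against -0.01 over all tested transcripts. IRAK2, a kinase that sustains toll-like receptor signaling, rose by 1.38 (SE 0.38, adjusted p = 0.0185), TLR2, the receptor for bacterial lipoproteins, by 1.25 (SE 0.32, adjusted p = 0.015) and TLR8, an endosomal receptor for single-stranded RNA, by 1.23 (SE 0.35, adjusted p = 0.0195). Between MEA and CTRL 0 of the 8 were called and their median was 0.48, against 0.03 over all tested transcripts.

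Brakes on this signaling other than IRAK3 were also called higher in SEA. Of 15 such genes, 7 had a symbol, and all 8 of their transcripts, read by 7 probes, were called higher in SEA, with a median of 1.5 and values from 0.72 for TOLLIP, an adaptor that dampens IRAK activity, upward. SOCS3 rose by 2.44 (SE 0.58, adjusted p = 0.0128) and by 2.32 for its second transcript, which shares the probe, and TNFAIP3, the ubiquitin-editing enzyme A20, rose by 2.40 (SE 0.63, adjusted p = 0.0161). Between MEA and CTRL 0 of the 8 were called, and the median was 0.58.

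Relatives of TREM1 and its signaling partners included 4 of 9 genes with a symbol, of which TREML2 was below the intensity filter. The other 3 rose in SEA: HCST, the adaptor DAP10, by 1.78 (SE 0.42, adjusted p = 0.0123), TREM2, a receptor of macrophages, by 1.56 (SE 0.56, adjusted p = 0.0496) and PLCG2, a signaling phospholipase, by 1.23 (SE 0.32, adjusted p = 0.0161). TREM2 was not called without CTRL 3 (1.3), without CTRL 4 (1.33) or with a replicate block (1.25). In MEA 0 of these 3 were called, and the median was 0.65.

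Soluble recognition molecules related to PTX3 were hardly represented. Of 17 genes, 3 had a symbol and 2 were tested: 1 rose and 1 fell in SEA, with a median of -0.14. TNFAIP6, a hyaluronan-binding partner of PTX3 that was also on the neutrophil list, rose by 1.06 (SE 0.44, adjusted p = 0.0824), and that call ended without any of 11 single horses, under quantile normalization, with the authors' normalized values, without an intensity filter, with the epithelial percentage and with slide as a block. SFTPD, the lung collectin surfactant protein D, fell by 1.33 (SE 0.45, adjusted p = 0.0397), and with normexp background correction the change was -0.31 and not called, nor was it called with a replicate block (-1.31). In MEA 0 of the 2 were called. APCS, the short pentraxin serum amyloid P, was below the intensity filter.

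Of 10 other pattern recognition receptors, 4 had a symbol: 3 rose and 0 fell in SEA. NOD2, the sensor of muramyl dipeptide, rose by 2.16 (SE 0.44, adjusted p = 0.00721), CLEC7A, the beta-glucan receptor dectin-1, by 1.93 (SE 0.50, adjusted p = 0.0156) and NLRP3, the inflammasome sensor, by 1.69 (SE 0.46, adjusted p = 0.0183). MARCO, given above, was not called. CLEC7A was the one gene of these 5 pathway lists that was called in MEA, higher by 1.5 in log2 (SE 0.50, adjusted p = 0.0857). That call ended without any of 11 of the 17 horses, the lowest value being 1.07 without CTRL 4, with normexp background correction (0.88), without an intensity filter, with the epithelial percentage (1.65, adjusted p = 0.3), with slide as a block (1.36) and with a replicate block (1.35).

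**Figure D5:**
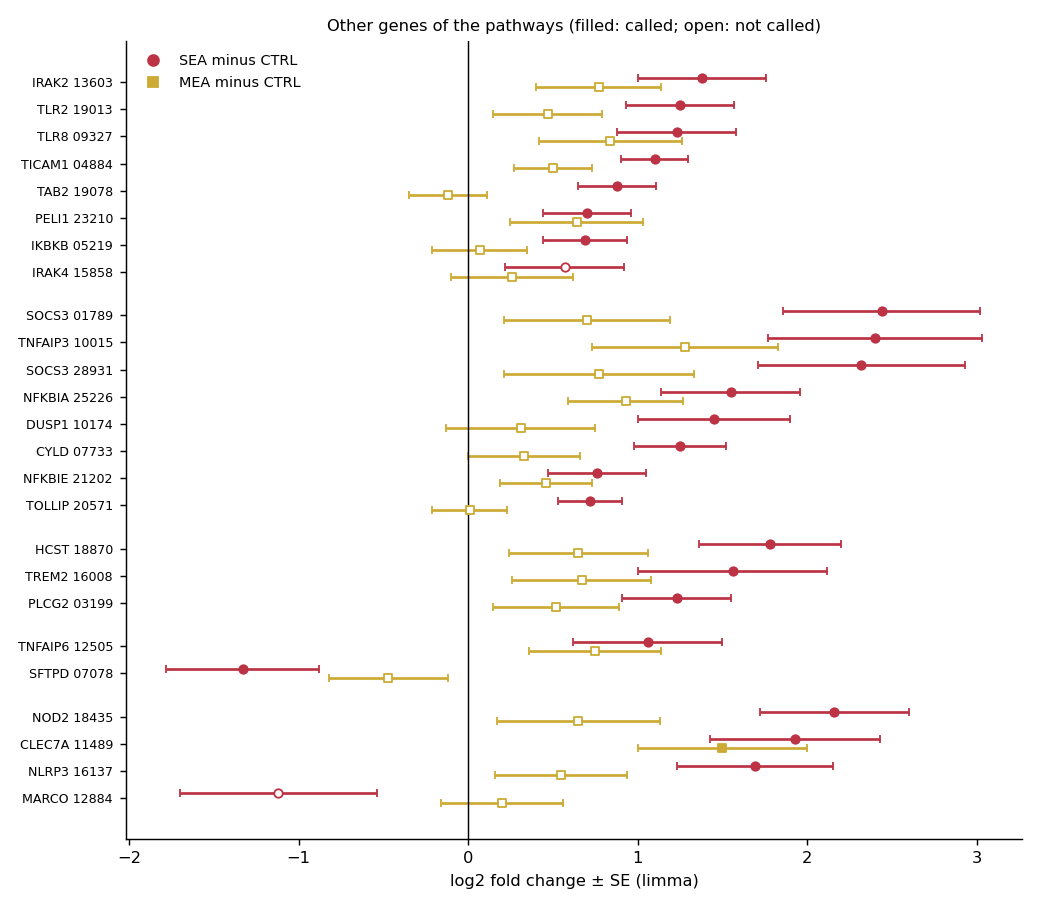
Log2 fold change ± SE for the other named genes of the toll-like receptor pathway, its brakes, TREM relatives and adaptors, soluble recognition molecules and other pattern recognition receptors, from top to bottom, with the last 5 digits of the transcript identifier. Circles are SEA minus CTRL and squares MEA minus CTRL, filled where called; the filled circles lie right of 0 except for SFTPD, and CLEC7A is the only filled square.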

How the data were processed

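RNA from BAL cells of 25 horses was measured on Agilent single-color arrays. The authors deposited the scanner intensity of every spot (Feature Extraction 9.5.1.1, background-subtracted within the array) and a table of intensities normalized by cyclic loess on a linear scale, with R 2.11.1 named in the submitters' processing notes. From the scanner values, log2 intensities were normalized by cyclic loess (span 0.7, 3 iterations), spots marked as outliers left out, the spots of a transcript averaged, and a transcript dropped when 19 or more of the 25 arrays read under 4.5, which left 4930.

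Groups came from the labels. Each pair of groups was fitted with lmFit and eBayes of limma 3.58.1 in R 4.3.3 over all tested transcripts. A call needs p below 0.1 after Benjamini-Hochberg adjustment and a change of 1.5-fold or more. Correlations were tested in Python 3.11.15 by two-sided permutation on the absolute coefficient, exact below 10 horses and with 100000 resamples otherwise, never pooled over groups. Neutrophil, epithelial and sex values of each horse came from the study's cytology table. Arrays have no depth, so their number limits the precision. The procedures were tested on simulated data. The closing section gives the alternatives.

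The members and lists were chosen with earlier results of these data known. Genes named in the text were the members, the 3 transcripts most correlated with each, and of each list at most the 3 largest rises and 3 largest falls in SEA, apart from IRAK4, APCS, TREML2, TOLLIP and SIGLEC1, which were named after their values were seen. Horses are separate animals with 1 array each. Replicate numbers are shared between groups but name different horses: correlations of same-numbered deviations ran from -0.442 to 0.407, so they were not paired. A gene of the soluble molecule list is not reported here. The number of sample columns not used was 0. The tables available hold no positions or proteins on the build of the probes, and none are given.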

Additional observations from a re-analysis of the deposited data

Results flagged for a closer look

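In 24 group sets of values, the 5 members and 3 marker list means within each group, the highest or lowest horse was compared with its nearest neighbor as a share of the group's whole range, and 8 sets held a horse beyond the critical value of Dixon's test, where chance gives about 5%. SEA 1 was the outlying horse for TREM1 ENSECAT00000018405 (10.00, share 0.60) and for its repeat ENSECAT00000018429 (10.12, share 0.55). MEA 3 was the outlying horse for TLR4 (15.87, share 0.58) and for IRAK3 (9.74, share 0.58). For the mean of the neutrophil markers MEA 3 lay apart from the MEA horses (12.47, share 0.74) and SEA 1 from the SEA horses (8.37, share 0.60). The macrophage marker mean of CTRL 1 lay apart (7.98, share 0.57), as did the epithelial marker mean of MEA 5 (6.66, share 0.47). MEA 3 was known to be high for TREM1 and TLR4 when these genes were chosen, so its place here is a description and not independent evidence, and the chance rate does not apply to it. These sets are not independent, since they come from the same arrays and both TREM1 transcripts are 1 probe.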

How the results depend on the processing

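The members had higher means in SEA than in CTRL under the normalizations, filters and covariates tried, and the exceptions were within slides, where the difference was -0.79 and -0.71 for the TREM1 transcripts, -0.49 for IRAK3 and -1.25 for PTX3 on slide 1 and -0.51 for PTX3 on slide 4. The sign of the slide 4 value rests on the lower of 2 SEA 8 spots that disagreed (14.52 and 13.11). The 1612 calls between SEA and CTRL became 874 with normexp background correction. Between MEA and CTRL 482 transcripts were called, against 157 with normexp, 210 at an adjusted p below 0.05, 183 with slide as a block and 0 with the epithelial percentage. That percentage also turned the members to -0.35 and -0.55 for TREM1, -0.14 for TLR4 and -0.49 for PTX3, with IRAK3 at -0.0. Between SEA and MEA 110 were called, against 0 after scaling to the 75th percentile, 39 after quantile normalization, 8 with normexp, 505 by rank sum SAM, 279 with all arrays in 1 fit, 2 at an adjusted p below 0.05, 208 with sex, 37 with the epithelial percentage, 219 with the share of spots above background and 0 with slide as a block. SAM, the fit of all arrays and sex each called 2 members there. With a replicate block there were 138 calls for MEA against CTRL, 0 for SEA against MEA, and 1360 for SEA against CTRL, where 5 members were called. Leaving out 1 horse gave 1238 to 1706, 156 to 750 and 2 to 559 calls in these comparisons, and 3 to 5, 0 to 0 and 0 to 4 members. Of the member pairs, 6 passed in CTRL (3 to 6 without 1 horse), 10 in MEA (6 to 10) and 10 in SEA (8 to 10); Spearman's rho gave 6 in MEA, and pairs of different probes gave 3, 6 and 6. The relation to neutrophil percentage in CTRL ran from -0.29 to 0.47 for IRAK3 (-0.20 with normexp), -0.17 to 0.73 for PTX3 and -0.17 to 0.74 and -0.18 to 0.74 for TREM1, and in SEA from -0.59 to 0.18 for IRAK3 and from -0.80 to 0.03 and -0.81 to 0.03 for TREM1. The cause of these shifts was not tested.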
